A study of Homo sapiens with 12 samples.

Results

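The genes described here are those of the insulin-like growth factor (IGF) system: the ligand IGF2, the receptors IGF1R and IGF2R, and the binding proteins IGFBP1 to IGFBP7. They were chosen by gene symbol, and every array probe carrying one of the 10 symbols was taken, which gave 15 of 47322 probes. RNA came from EA.hy926, a human umbilical vein endothelial cell hybrid line, and was measured on Illumina BeadChips. Ctrl_EC cells, called control cells below, were stably transfected with an empty vector, and ERa_EC cells, called receptor cells, with a pCMV3-ERalpha plasmid for estrogen receptor alpha. Each line received either ethanol vehicle or 10 nM 17beta-estradiol (E2) for 16 hours after 24 hours without serum, with 3 arrays in each of the 4 groups. Both lines were selected in puromycin and had single colonies picked. The labels do not say whether an array stands for a colony, a culture or a repeat, so a p-value measures the spread between these arrays, which may be technical.

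IGF1 and IGF2 signal through the receptor tyrosine kinase IGF1R, while IGF2R, the cation-independent mannose 6-phosphate receptor, takes up and degrades IGF2 and sorts lysosomal enzymes. The binding proteins are secreted and hold the ligands in the circulation and around cells, where they can limit or prolong access to IGF1R. IGFBP7 binds IGFs weakly and is a known component of the vascular basement membrane, and IGFBP3 and IGFBP4 are secreted by cultured endothelial cells.

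Arrays detected 18441 to 19747 probes at a detection p under 0.05, and the 21476 probes detected on 3 or more arrays were tested together. Levels are background-corrected, normalized log2 intensities, on which a probe at the detection limit reads 4.81 to 4.89. The receptor arrays numbered 1 had the most detected probes, 19612 and 19747, against 18441 to 19180 on the other arrays. The ESR1 probe was detected on 0 of 12 arrays, with raw intensities of 96.9 to 122. Whether that probe's target lies in the transfected transcript is not given, so it does not check the labels. The endothelial markers PECAM1, CDH5, VWF, TEK, TIE1 and NOS3 were detected on 12 of 12 arrays. ERG was detected on 10 by its most often detected probe, KDR on 8 and CLDN5 on 0. Over 9 endothelial markers the mean level was 8.79 to 9.0 on control arrays and 8.27 to 8.87 on receptor arrays. Over 5 epithelial markers it was 6.27 to 6.47 on control arrays, 6.57 to 6.80 on receptor vehicle arrays and 6.89 to 7.27 on receptor E2 arrays. Of these markers EPCAM, KRT8 and KRT18 were detected on 12 arrays, KRT19 on 4 and CDH1 on 0. The part of these shifts in the differences reported below was not tested. Of the leukocyte markers PTPRC and CD3E were detected on 0 arrays and CD14 on 8. Of the mesenchymal markers PDGFRB was detected on 0 arrays, COL1A1 on 1, and ACTA2 and TAGLN on 12. Of the hepatocyte markers APOA1 was detected on 0 arrays and ALB on 11.

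Transcripts of 5 of the 10 genes, IGFBP3, IGFBP4, IGFBP6, IGFBP7 and IGF2R, were detected on all 12 arrays, IGFBP3 by both of its probes. IGFBP2 was detected on 5 arrays and IGFBP5 probe 1 on 3 arrays, which took the number of probes that passed the detection filter to 8 of 15, from 7 genes. IGFBP1, the insulin-regulated binding protein best known from liver and decidua, was detected by neither of its probes, whose detection p ranged from 0.0675 to 0.868 and whose raw intensities of 92.8 to 121 lay around the arrays' medians of 105 to 121. The second IGFBP5 probe was likewise detected on 0 arrays, with detection p from 0.586 to 0.953.

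**Figure D1:**
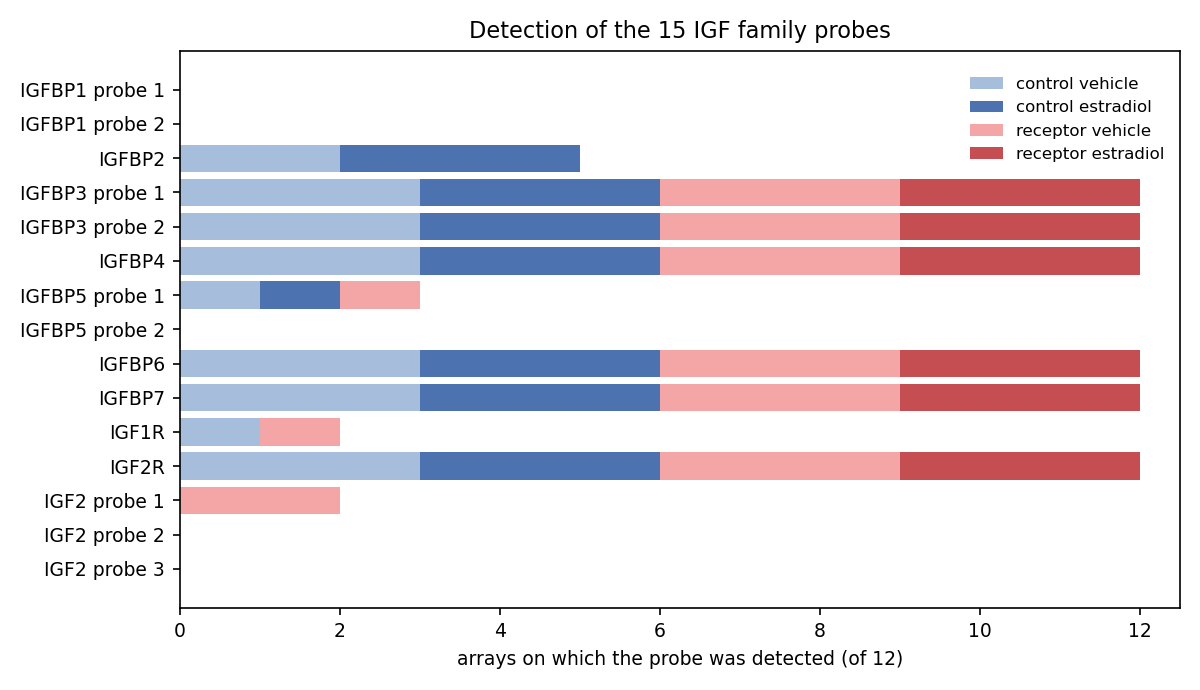
Number of arrays, of 12, on which each of the 15 probes had a detection p under 0.05 (horizontal axis), coloured by group. The probes of IGFBP3, IGFBP4, IGFBP6, IGFBP7 and IGF2R reach 12, and the 5 arrays that detected IGFBP2 are all control arrays.

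IGF2, the fetal growth ligand, stayed near the detection limit. IGF2 probe 1 was detected on 2 arrays, both from receptor cells under vehicle, where its level was 4.84, 4.46 and 4.91. Control vehicle arrays read 4.58, 4.39 and 4.50, control E2 arrays 4.58, 4.80 and 4.61, and receptor E2 arrays 4.57, 4.59 and 4.46. The receptor vehicle array numbered 2 thus lay among the values of the other groups, the probe did not pass the filter, and no fold was computed. IGF2 probes 2 and 3, both annotated to transcript variant 2, were detected on 0 arrays.

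IGF1R, the signalling receptor, was detected on 2 arrays, both numbered 2 and under vehicle, with a level of 4.94 in control cells and 5.00 in receptor cells. The other arrays read from 4.44 to 4.84 and were not detected, so these arrays could not show whether IGF1R differed between groups.

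IGF2R was detected throughout, and no comparison of it passed the test. Control vehicle arrays read 9.48, 9.23 and 9.0, and control E2 arrays 8.87, 8.89 and 9.08. Receptor vehicle arrays read 8.81, 9.31 and 8.80, and receptor E2 arrays 9.06, 8.96 and 8.89. All 4 groups overlapped one another. The E2 response was 0.00 ± 0.16 in receptor cells (log2 fold ± standard error, 95% interval -0.34 to 0.34) and -0.29 ± 0.16 in control cells (interval -0.63 to 0.05), each with an adjusted p of 1.00.

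The comparison of receptor with control cells asked what the stable receptor line differs in, without and with hormone. IGFBP7 was lower in receptor cells in both conditions, by 1.46-fold under vehicle and 1.51-fold under E2, and IGFBP2 was lower under E2. IGFBP6, which prefers IGF2 over IGF1, lay lower in receptor cells by 1.41-fold under vehicle and 1.34-fold under E2 without passing the test. In such bulk RNA, fewer cells of a type and less RNA per cell cannot be told apart. A probe was called at an adjusted p under 0.05 in a limma fit over all tested probes. Under vehicle 1 of the 8 tested IGF probes was called, lower, where 7.34% of all tested probes were called and 4.08% were called lower. Under E2 2 of 8 were called, both lower, against 6.19% of all tested probes, or 3.47% lower. One of these was IGFBP2, which passed the detection filter through control arrays alone, and with detection required on all 12 arrays 1 probe was called. The 8 probes had a median log2 fold of -0.34 under vehicle, with 7 of 8 negative, and of -0.04 under E2, with 4 of 8 negative. The median over all tested probes was -0.01 in each condition.

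IGFBP7 varied little among control arrays and more among receptor arrays. Control vehicle arrays read 11.96, 12.03 and 11.98, and control E2 arrays 12.07, 12.05 and 12.11. Receptor vehicle arrays read 11.19, 11.68 and 11.47, and receptor E2 arrays 11.34, 11.46 and 11.67. Every receptor array lay below every control array on this scale. In the raw intensities the vehicle groups overlapped, with receptor array 2 at 3711 above control array 3 at 3580.1, and the E2 groups did not. The share of all probes that separate in raw intensities was not computed, here or for the genes below. The log2 fold was -0.54 ± 0.13 under vehicle (adjusted p = 0.028) and -0.59 ± 0.13 under E2 (adjusted p = 0.0195). Groups that do not overlap in this direction were found for 15.3% of tested probes under vehicle and 14.1% under E2. The call is near the threshold. Under vehicle it was lost without any 1 of the control vehicle arrays or without receptor vehicle array 1 (adjusted p 0.0722 to 0.11), and with the 2 vehicle groups fitted alone (0.0669). Under E2 it was lost without any 1 of the control E2 arrays or receptor E2 array 1 or 2 (0.0603 to 0.0731), and without both receptor arrays numbered 2 (0.0515). The fold without those arrays ran from -0.41 to -0.55 under vehicle and from -0.51 to -0.60 under E2.

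IGFBP6 showed the same order of lines with more spread among receptor arrays. Control vehicle arrays read 11.84, 11.86 and 11.66, and control E2 arrays 11.61, 11.85 and 11.84. Receptor vehicle arrays read 10.94, 11.35 and 11.57, and receptor E2 arrays 11.15, 11.26 and 11.64. The groups did not overlap under vehicle, and under E2 receptor array 3 reached into the control range. In the raw intensities it was the other way round, with an overlap under vehicle (receptor 2546.8 to 2997.6, control 2883.4 to 3926.7) and none under E2. The log2 fold was -0.50 ± 0.17 under vehicle (adjusted p = 0.0975) and -0.42 ± 0.17 under E2 (adjusted p = 0.178). Leaving out both receptor arrays numbered 3 gave -0.64 (adjusted p = 0.0154) and -0.56 (adjusted p = 0.029), and leaving out both numbered 1 gave -0.32 under each condition (adjusted p = 0.195 and 0.22).

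IGFBP2, a binding protein with an integrin-binding motif, was near the detection limit and was seen in control cells alone. Control vehicle arrays read 5.09, 5.09 and 4.59, of which 2 were detected, and control E2 arrays 5.25, 5.17 and 5.46, all detected. Receptor vehicle arrays read 4.61, 4.48 and 4.58, and receptor E2 arrays 4.46, 4.61 and 4.57, with 0 of 6 detected. Under E2 the groups did not overlap, and under vehicle control array 3 lay within the receptor range. Because receptor cells were undetected, the fold has only a bound, set by putting each undetected receptor array at the lowest detected signal of that array. Set so, the E2 means put IGFBP2 1.36-fold lower in receptor cells (control mean 5.29, receptor measured mean 4.55). The adjusted p of the measured difference was 0.00821 in the limma fit. Under vehicle the bound was 1.06-fold (means 4.92 and 4.56), where the groups overlapped. The adjusted p there was 0.143, and without control vehicle array 3 it was 0.0396. These bounds make no allowance for the spread between arrays and hold for this scale alone. On the authors' deposited table, with the same arrays and filter, the limma fit under E2 gave a log2 difference of -0.245 in place of -0.743 (adjusted p = 0.0244). IGFBP2 entered both fits through control arrays alone, so neither p-value is free of that selection.

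IGFBP5 probe 1, for a binding protein held in extracellular matrix, was highest in each group on the array numbered 3. Its level on the arrays numbered 3 was 5.03 in control vehicle, 5.05 in control E2, 5.00 in receptor vehicle and 4.78 in receptor E2, and the first 3 of these were the detected ones. The other 8 arrays read 4.39 to 4.69. No comparison of it was called, and its differences among control arrays of different number gave an adjusted p of 0.695.

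**Figure D2:**
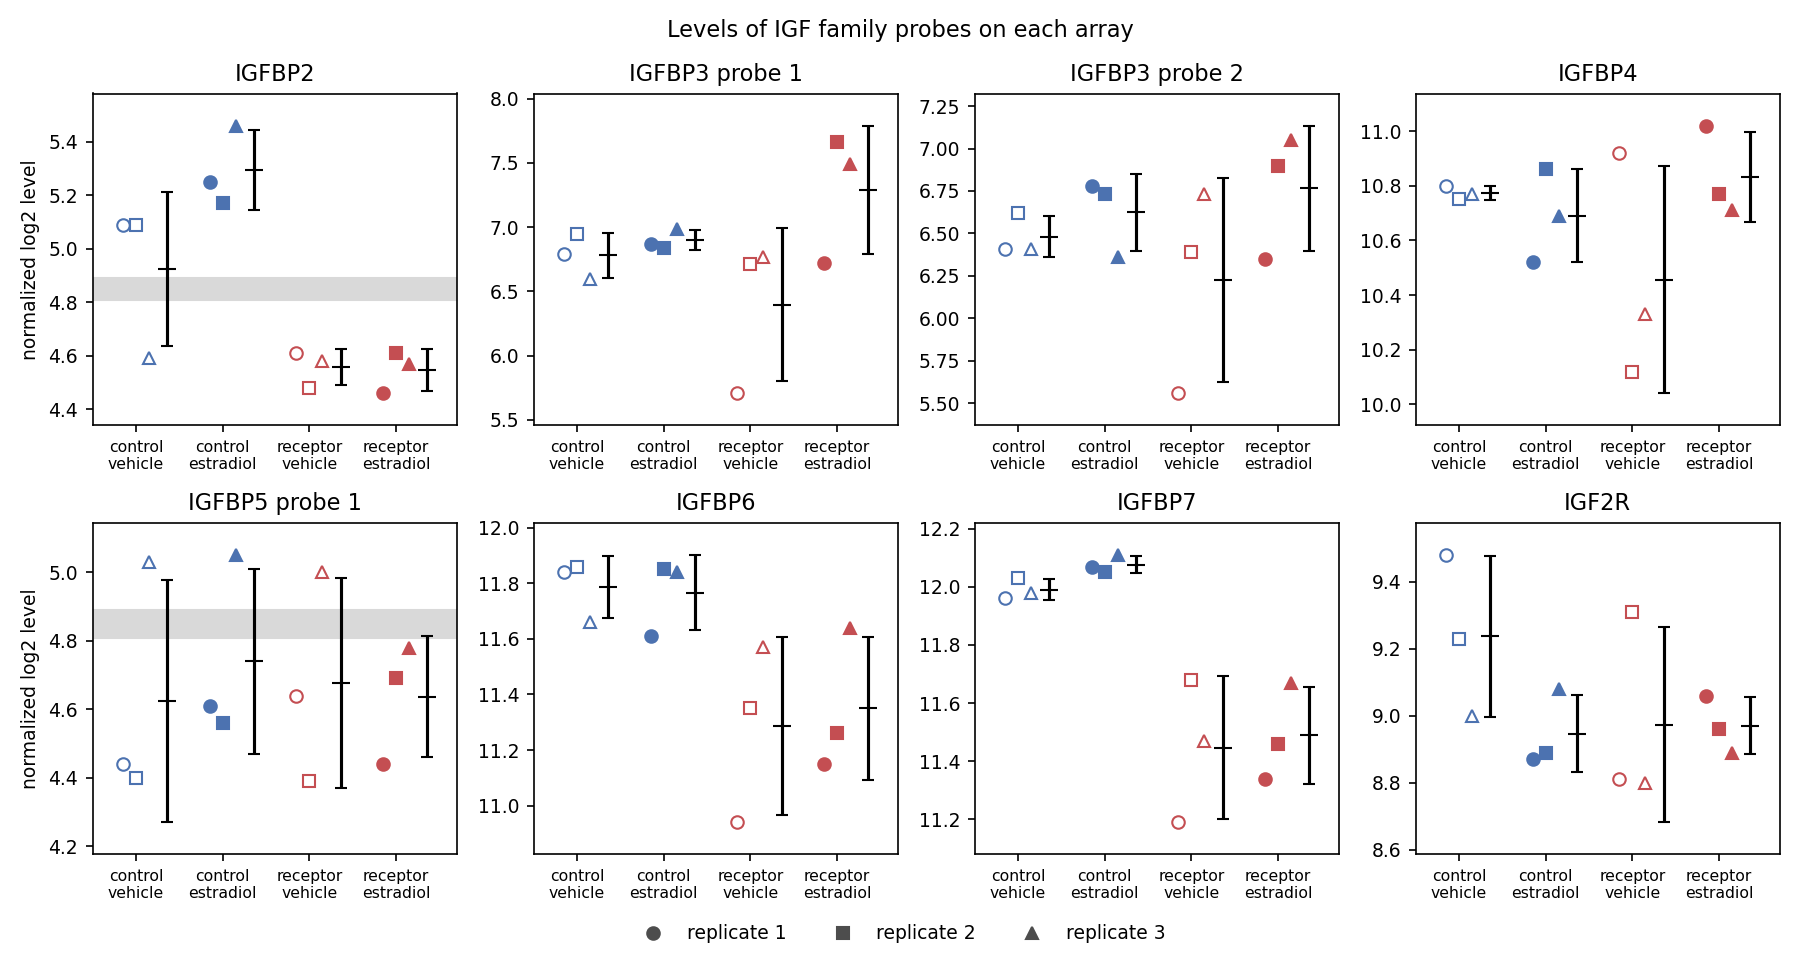
Normalized log2 level (vertical axis, scaled per panel) of the 8 tested probes on each of the 12 arrays, with open symbols for vehicle, filled for E2, shape for the replicate number, and black bars for the group mean ± SD (n = 3). Grey bands mark the lowest detected level of the arrays, 4.81 to 4.89. All 6 receptor arrays lie below all 6 control arrays for IGFBP7. Within each receptor group the array numbered 1 lies lowest for both IGFBP3 probes.

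**Figure D3:**
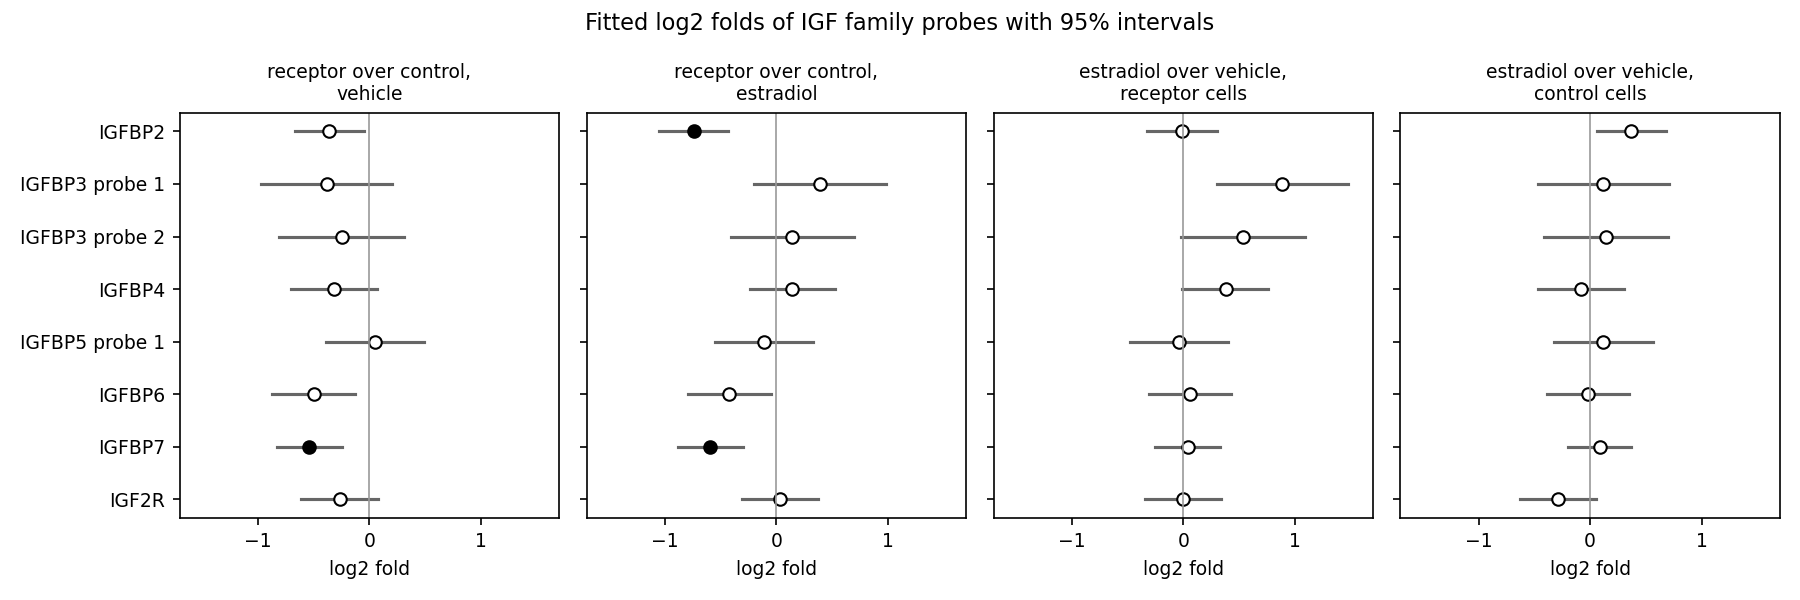
Fitted log2 fold (horizontal axis) of the 8 tested probes in the 4 comparisons, without a term for culture. Lines are 95% intervals and filled points passed an adjusted p under 0.05, namely IGFBP7 in both comparisons of the lines and IGFBP2 under E2.

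The comparison of E2 with vehicle in receptor cells asked which transcripts differ with hormone in cells given the receptor. On its own it cannot show that a response goes through that receptor. IGFBP3, the main IGF carrier of serum, was higher under E2 in each same-numbered pair of receptor arrays, by both probes, and IGFBP4, which is an inhibitor of IGF action, was also higher in each pair. IGFBP6, IGFBP7 and IGF2R had log2 folds of 0.06, 0.04 and 0.00, and IGFBP2 was detected in neither group. The epithelial marker means of the same receptor arrays, given above, were also higher under E2 without overlap, and their part in the result was not tested. Among single tested probes 2.93% were higher without overlap in this comparison. Over all arrays KRT19 ran from 4.29 to 7.03, EPCAM from 4.86 to 6.45 and KRT8 from 9.65 to 10.87. KRT18 ran from 7.51 to 8.81 and CDH1 from 4.25 to 4.47. Which of these genes moved the mean is not given here. Without a term for culture 0 of 8 IGF probes were called, against 0.0605% of all tested probes, and 739 of 21476 probes had an unadjusted p under 0.05. The receptor arrays of the same number deviated from their group means together, so the number was also fitted as a culture with 1 vehicle and 1 E2 array. That fit gave the numbers of control arrays a term too, and both lines shared 1 estimate of the spread. In that fit 1 of 8 was called, IGFBP3 probe 1, against 0.121% of all tested probes.

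IGFBP3 probe 1, annotated to transcript variant 2, read 5.71, 6.71 and 6.77 on receptor vehicle arrays 1, 2 and 3 and 6.72, 7.66 and 7.49 on the E2 arrays of the same numbers. The pairs differed by 1.00, 0.95 and 0.72. E2 array 1 lay within the vehicle range, so the groups overlapped although each pair was higher under E2. In the raw intensities, before background correction and normalization, the same arrays read 161.9, 205.1 and 180.0 under vehicle and 224.8, 266.4 and 235.1 under E2, which did not overlap. How many of all probes separate likewise in raw intensities was not computed. The arrays numbered 1 had the higher median raw intensities, 121 and 117 against 105 to 112 on the other arrays, and the overlap came with the normalization. It was present on the authors' deposited table too, where log2 values were 7.15, 7.61 and 7.64 under vehicle and 7.61, 8.21 and 8.09 under E2. The log2 fold was 0.89, or 1.86-fold, with a standard error of 0.27 without the culture (adjusted p = 0.974) and 0.11 with it (95% interval 0.63 to 1.15, adjusted p = 0.025). The call with the culture was lost with no filter on dim probes (adjusted p = 0.068), with the 6 receptor arrays alone (0.0592), and without culture 1, 2 or 3 (0.317, 0.196 and 0.0943). The log2 fold was 0.89 in the first 2 of these fits and 0.836, 0.863 and 0.977 without a culture. On the authors' deposited table the log2 fold with the culture was 0.504 (adjusted p = 0.000327).

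IGFBP3 probe 2, annotated to transcript variant 1, read 5.56, 6.39 and 6.73 on receptor vehicle arrays and 6.35, 6.90 and 7.05 on receptor E2 arrays. Its pairs differed by 0.79, 0.51 and 0.32, in the direction of the first probe and by less. Its raw intensities of 155.0, 181.8 and 177.6 under vehicle and 194.7, 194.7 and 195.0 under E2 did not overlap either. The log2 fold of 0.54 did not pass with the culture (standard error 0.12, 95% interval 0.27 to 0.81, adjusted p = 0.248). In control cells probe 1 read 6.79, 6.95 and 6.60 under vehicle and 6.87, 6.84 and 6.99 under E2, and probe 2 read 6.41, 6.62 and 6.41 under vehicle and 6.78, 6.73 and 6.36 under E2. The groups overlapped for both probes there, with log2 folds of 0.12 and 0.14. Between the lines neither probe was called. Probe 1 had log2 folds of -0.38 under vehicle (adjusted p = 0.426) and 0.39 under E2 (adjusted p = 0.451). Probe 2 had -0.25 (adjusted p = 0.601) and 0.14 (adjusted p = 0.808).

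IGFBP4 read 10.92, 10.12 and 10.33 on receptor vehicle arrays and 11.02, 10.77 and 10.71 on receptor E2 arrays. The pairs differed by 0.11, 0.64 and 0.38, and the groups overlapped because vehicle array 1 was above E2 arrays 2 and 3. The log2 fold was 0.38 with a standard error of 0.12 with the culture (95% interval 0.10 to 0.65, adjusted p = 0.493). Control arrays read 10.80, 10.75 and 10.77 under vehicle and 10.52, 10.86 and 10.69 under E2, which overlapped. Of all tested probes, 13.1% were higher under E2 in each of the 3 receptor pairs, as were 3 of the 8 IGF probes. In the comparison of lines under vehicle IGFBP4 had a log2 fold of -0.32 (adjusted p = 0.303), and without both receptor arrays numbered 1 it was -0.55 (adjusted p = 0.0184). Without receptor vehicle array 2 it was -0.15 (adjusted p = 0.693).

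**Figure D4:**
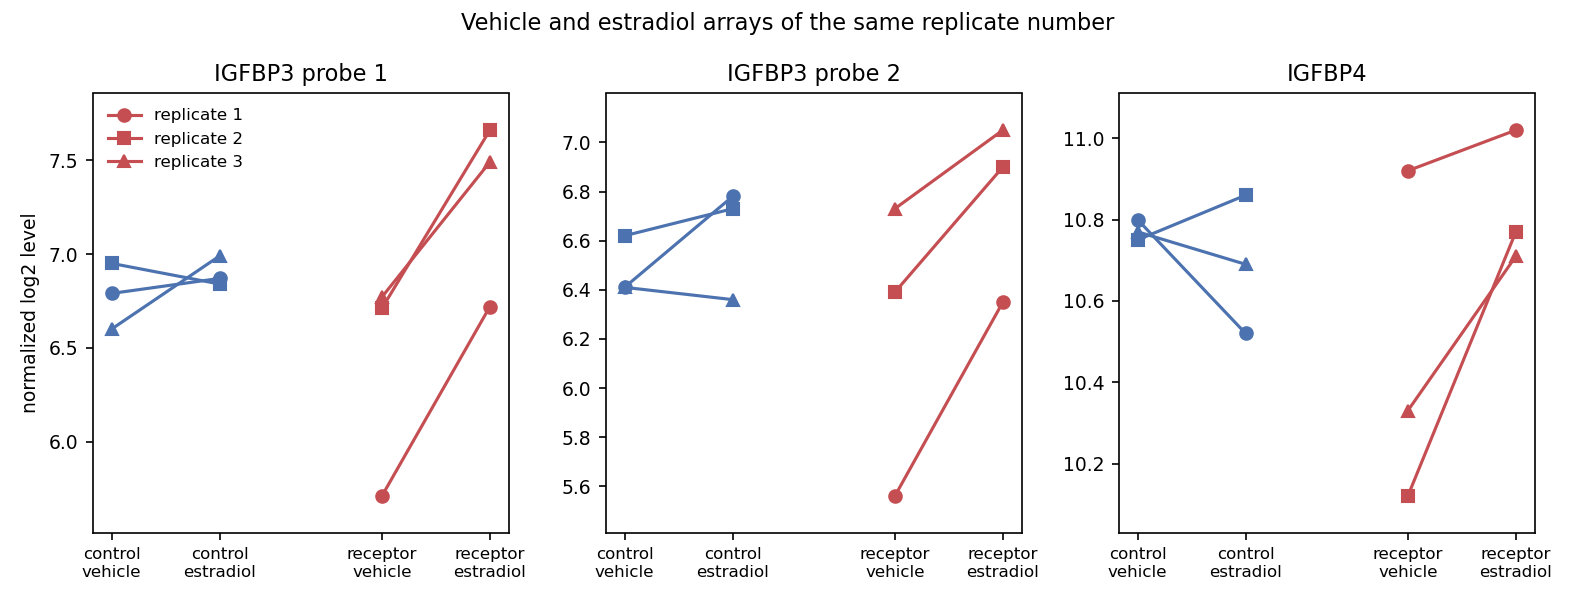
Normalized log2 level (vertical axis) of both IGFBP3 probes and IGFBP4 under vehicle and E2, with lines joining arrays of the same replicate number (blue control, red receptor). All 9 receptor lines slope upward, by 0.11 to 1.00, while control lines go both ways.

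Receptor arrays of different number, fitted as cultures, differed from one another in IGFBP3. The labels do not say what a number stands for. The receptor arrays numbered 1 also had the highest median raw intensities, 121 and 117, whose part in these differences was not tested. Averaged over vehicle and E2, probe 1 read 6.21, 7.18 and 7.13 in cultures 1, 2 and 3 (adjusted p = 0.00724, limma F-test), a range of 1.96-fold that exceeds the E2 difference. Probe 2 read 5.96, 6.65 and 6.89 (adjusted p = 0.0143). Culture 1 was thus the low one for both probes on the normalized scale. In the raw intensities it was lowest for probe 1 under vehicle and E2, and for probe 2 under vehicle. The receptor E2 arrays read 194.7, 194.7 and 195.0 for probe 2 before normalization. Of the 8 IGF probes these 2 were called, against 15.9% of all tested probes. IGFBP6 ran from 11.05 in culture 1 to 11.61 in culture 3 (adjusted p = 0.0596), and IGFBP4 was highest in culture 1, at 10.97 against 10.45 and 10.52 (adjusted p = 0.0878). Control arrays of the same number did not deviate together, so differences by number there are not read as differences between cultures. The fits with the culture still gave the control numbers a term of their own. The same F-test by number called 0 of 8 there, against 0% of all tested probes, and 1529 probes had an unadjusted p under 0.05.

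Because estrogen receptor alpha binds DNA at estrogen response elements and also acts through GC-box factors, the 250 bases before the annotated start are shown for the called or paired-higher binding proteins that the RefSeq promoter table (GRCh38.p14) holds. The table matched 7 of the 10 genes. IGFBP2 lies on the plus strand at chr2:216632578-216632827 (outermost of its annotated starts), IGFBP3 on the minus strand at chr7:45921273-45921522, and IGFBP4 on the plus strand at chr17:40443200-40443449. Capitals mark matches, on either strand, to the half-site GGTCA, the GC box GGGCGG or the TATA box TATAAA.
IGFBP2: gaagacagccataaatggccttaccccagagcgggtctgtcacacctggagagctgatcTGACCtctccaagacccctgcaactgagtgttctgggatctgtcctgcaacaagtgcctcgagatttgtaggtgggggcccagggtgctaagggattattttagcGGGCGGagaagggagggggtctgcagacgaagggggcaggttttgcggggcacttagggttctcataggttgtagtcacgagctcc
IGFBP3: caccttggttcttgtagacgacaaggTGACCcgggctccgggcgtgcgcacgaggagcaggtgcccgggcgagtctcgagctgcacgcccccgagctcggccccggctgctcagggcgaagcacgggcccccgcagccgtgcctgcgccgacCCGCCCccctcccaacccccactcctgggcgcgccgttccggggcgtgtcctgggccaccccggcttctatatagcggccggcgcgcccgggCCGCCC
IGFBP4: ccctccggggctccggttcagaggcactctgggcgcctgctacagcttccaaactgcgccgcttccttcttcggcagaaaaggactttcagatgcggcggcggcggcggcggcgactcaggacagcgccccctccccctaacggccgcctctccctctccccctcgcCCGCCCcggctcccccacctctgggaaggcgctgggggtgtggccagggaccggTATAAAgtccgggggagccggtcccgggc
The IGFBP3 window held 1 half-site, 224 bases before the start, and GC boxes at 98 and 6 bases. The IGFBP2 window held 1 half-site at 191 bases and 1 GC box at 86 bases. The windows of its other annotated starts, not shown, held no half-site, and a GC box lay 49 bases before one of those starts. The window of IGF2R, which was not called in any comparison, held half-sites at 128 and 94 bases and 6 GC boxes. The part of any of these matches in a response was not tested. The IGFBP4 window held a GC box at 83 bases and a TATA box at 29 bases. The full element GGTCANNNTGACC, which contains half-sites, was in none of the windows of the matched IGF genes and in 0.0399% of 35116 promoters in the table. Half-sites were in 32.6% of those promoters, GC boxes in 42.6% and TATA boxes in 10.7%.

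In control cells, which were not given the receptor, the comparison of E2 with vehicle gives the background of the hormone treatment. There 0 of 8 IGF probes were called, against 0% of all tested probes, while 528 probes had an unadjusted p under 0.05 in the limma fit. For IGFBP2 all control E2 arrays were above all control vehicle arrays, of which array 3 was undetected, and the log2 fold was 0.37 ± 0.14 (adjusted p = 1.00). It was 0.202 without that array and 0.118 on the authors' deposited table. IGFBP7 also did not overlap, with a log2 fold of 0.09 ± 0.13, where 5.39% of tested probes were separated in that direction. The E2 response of receptor cells minus that of control cells was called for 0 of 8 IGF probes, against 0.0279% of all tested probes, and 636 probes had an unadjusted p under 0.05. For IGFBP3 probe 1 this difference of responses was 0.77 ± 0.39 (adjusted p = 1.00), and 0.77 ± 0.16 with the culture (adjusted p = 0.321). For IGFBP3 probe 2 it was 0.39 ± 0.36, and 0.39 ± 0.17 with the culture (adjusted p = 0.682). For IGFBP4 it was 0.46 ± 0.25 (adjusted p = 1.00). None is given for IGFBP2, which was detected on 0 receptor arrays.

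Around these members, 5 lists of IGF-related genes held 66 genes, of which 52 were measured by 74 tested probes. The lists were chosen with earlier results of these data known, so their shares of called probes are descriptive and do not test for enrichment. Under vehicle 3 probes were higher and 5 lower in receptor cells, which is 10.8% of the probes against 7.34% of all. Under E2 6 were higher and 3 lower, or 12.2% against 6.19%. IGFALS, the acid-labile subunit that joins IGF and IGFBP3 or IGFBP5 in the serum complex, was higher in receptor cells under vehicle by 1.07 on the log2 scale (adjusted p = 0.000555) and under E2 by 0.62 (adjusted p = 0.0165). Its control arrays read 5.02 to 5.24 and its receptor arrays 5.58 to 6.30. HMGA2, a chromatin protein, had 1 probe lower by a log2 fold of -0.75 under vehicle (adjusted p = 0.00322) and -0.81 under E2 (adjusted p = 0.00174). Its other probe did not pass, at -0.48 (adjusted p = 0.163) and -0.51 (adjusted p = 0.156).

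Among regulators of the binding proteins, PAPPA, the protease that cleaves IGFBP4, and STC2, a stanniocalcin that inhibits PAPPA, differed in opposite directions under E2. PAPPA read 8.0, 7.91 and 8.10 on control E2 arrays and 6.91, 7.36 and 6.99 on receptor E2 arrays, a log2 fold of -0.92 ± 0.19 (adjusted p = 0.0138). STC2 read 7.80, 7.22 and 7.51 on control E2 arrays and 8.53, 8.29 and 8.14 on receptor E2 arrays, a log2 fold of 0.81 ± 0.17 (adjusted p = 0.0121). Neither pair of groups overlapped, as was so for 14.1% of tested probes in the lower and 11.8% in the higher direction. Under vehicle the folds were -0.51 for PAPPA (adjusted p = 0.134) and 0.49 for STC2 (adjusted p = 0.0951). STC1, the other stanniocalcin listed, had the opposite sign to STC2. Its log2 folds were -0.69 under vehicle (adjusted p = 0.379) and -0.21 under E2 (adjusted p = 0.843). Of the 7 tested probes of this list of proteases and inhibitors 0 were called under vehicle, with a median log2 fold of -0.38, and 2 under E2, with a median of -0.12.

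In the list of signalling below the receptors, with 43 probes, 1 was higher and 4 lower under vehicle (median log2 fold -0.05). SOCS2, a suppressor of growth hormone signalling, was higher by 0.95 by 1 probe (adjusted p = 0.00663), and its other probe gave 0.42 (adjusted p = 0.216). GRB10, an adaptor that dampens insulin and IGF1 receptor signalling, was lower by 2 probes, with log2 folds of -0.57 and -0.53 (adjusted p = 0.0162 and 0.0324), while its other tested probe gave -0.02 (adjusted p = 0.97). The adaptor SHC1 was lower by 1 of 3 probes (-0.57, adjusted p = 0.0197), and the lipid phosphatase INPPL1 had a log2 fold of -0.55 (adjusted p = 0.0268). Under E2 2 were higher and 1 lower (median 0.05), the lower one being PIK3R1, a regulatory subunit of phosphoinositide 3-kinase, at -0.67 (adjusted p = 0.00821). The SOCS2 probe called under vehicle was called there too, at 0.76 (adjusted p = 0.0228). The 4 probes called lower under vehicle were not called under E2. These GRB10 probes gave -0.26 and -0.43 (adjusted p = 0.24 and 0.0862), SHC1 -0.02 (adjusted p = 0.948) and INPPL1 -0.13 (adjusted p = 0.619).

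For E2 in receptor cells 1 of the 74 probes of the 5 lists was called, or 1.35% against 0.0605% of all. That share rests on 1 probe in lists chosen with earlier results of these data known. For E2 in control cells and for the difference of responses 0 were called. The 1 probe called for E2 in receptor cells was that of CCN5, listed in the file as WISP2. CCN5 is a secreted protein with an IGFBP-like domain and an estrogen-induced gene in breast cancer cells. It read 5.80, 6.02 and 6.15 on receptor vehicle arrays and 7.55, 7.18 and 7.32 on receptor E2 arrays, which did not overlap, as was so for 2.93% of tested probes in that direction. Its log2 fold was 1.36 ± 0.17 (adjusted p = 0.00696), and with the culture the adjusted p was 0.0165. Control arrays read 5.38, 5.75 and 5.21 under vehicle and 6.05, 5.70 and 5.56 under E2, which overlapped, and the difference of responses was 1.04 ± 0.24 (adjusted p = 0.804). Under E2 CCN5 was higher in receptor than control cells by 1.58 (adjusted p = 0.000131).

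The probes whose profile over the 12 arrays lay nearest to that of IGFBP7, after each was centred on its mean, belonged to EMP3 and MAPK3, with root mean square differences of 0.0728 and 0.0819 on the log2 scale where IGFBP7 itself varied by 0.31. Genes beside IGFBP7 in the RefSeq gene order, 50 tested ones on chromosome 4, had a median log2 difference of receptor vehicle array from control mean of -0.16, -0.15 and -0.17 for arrays 1, 2 and 3, against -0.80, -0.31 and -0.52 for IGFBP7. Beside IGFBP6 on chromosome 12 the same medians were 0.04, 0.02 and 0.07, against -0.85, -0.43 and -0.21 for IGFBP6.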

How the data were processed

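Per the file headers, the deposited tables hold a probe intensity and a detection p-value per array, with symbols and definitions. The non-normalized intensities were used. The authors' deposited normalized intensities were made with lumi, per the submitters' processing notes, and served as an alternative; the array platform's probe sequences were not used here. Of 47322 probes, 1 lacked values on some arrays. Intensities were background-corrected and quantile-normalized with limma 3.58.1 in R 4.3.3 (neqc, offset 16, negative controls inferred from the detection p-values), and probes with detection p under 0.05 on 3 or more arrays were kept. One limma model with a mean per group was fitted over 12 arrays, with two-sided moderated tests and Benjamini-Hochberg adjustment over 21476 probes. The fitting code was tested on simulated data. The number of arrays limits the precision.

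To check the pairing, each array's deviation from its group mean was correlated over the kept probes between the vehicle and the E2 array of a number. For receptor cells the 3 values were 0.73, 0.36 and 0.65, and for control cells 0.08, 0.04 and 0.10. The pairing therefore comes from the receptor data, not from the labels, and the number within a line was fitted as a block where stated. Named genes were every probe of the 10 members, at most 6 called list genes per comparison, and the 2 nearest profiles of a called member detected throughout. The members and lists were chosen with earlier results of these data known. Figures were drawn with matplotlib.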

Additional observations from a re-analysis of the deposited data

How the results depend on the processing

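Of 1143 recomputed values, 1045 kept their direction and side of the threshold, 21 no longer passed, 24 newly passed and 53 turned sign, none of these 53 above 0.124 in size; the cause was not tested. Leaving out arrays or receptor cultures, called IGF probes ranged from 0 to 2 between the lines under vehicle and from 1 to 3 under E2. The 2 vehicle groups alone gave 0, and probes detected on all 12 arrays gave 1 under E2, since IGFBP2 is not among them. With the replicate block within each line, E2 in receptor cells gave 1, also with the authors' table, no background correction or detection on all arrays, and 2 with normexp at offset 50. These combinations, and leaving out a culture within the block, were added after seeing the data. The block changed no other member call, and numbers 1 to 3 as a replicate block over all arrays gave 0 calls for E2 in receptor cells. Receptor cultures differed in 5 probes on the authors' table and in 4 with normexp or detection on all arrays.

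The values that turned sign were at most 0.25 in size as reported. IGF2R under E2 in receptor cells was -0.000511 with normexp and -0.00135 with no background correction. Leave-one-out ranges for E2 in receptor cells were -0.124 to 0.174 for IGF2R, -0.0771 to 0.0571 for IGFBP2, -0.212 to 0.121 for IGFBP5 probe 1, or -0.212 to 0.0501 with the block, -0.113 to 0.205 for IGFBP6, or -0.0139 to 0.14 with the block, and -0.09 to 0.169 for IGFBP7, or -0.0407 to 0.169 with the block. Within these, the receptor cultures left out whole, with the block or not, gave -0.124 and -0.0474 for IGF2R, 0.0397 and 0.0501 for IGFBP5 probe 1, and -0.0141 and -0.0407 for IGFBP7. Single receptor vehicle arrays left out gave -0.0879 to 0.17 for IGF2R, -0.0476 to 0.0144 for IGFBP2, -0.186 to 0.121 for IGFBP5 probe 1 and -0.09 to 0.155 for IGFBP7, and receptor E2 array 1 gave 0.0324 for IGFBP2. For E2 in control cells the leave-one-out ranges were -0.168 to 0.00102 for IGFBP4, -0.0383 to 0.318 for IGFBP5 probe 1 and -0.0832 to 0.0611 for IGFBP6. Between the lines they were -0.501 to 0.0823 for IGFBP3 probe 2 and -0.112 to 0.252 for IGFBP5 probe 1 under vehicle, and -0.0163 to 0.0953 for IGF2R and -0.198 to 0.0476 for IGFBP5 probe 1 under E2. For the difference of responses they were -0.359 to 0.00443 for IGFBP5 probe 1, -0.0941 to 0.224 for IGFBP6 and -0.177 to 0.0822 for IGFBP7, which was 0.0681 without receptor vehicle array 2.

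Over all probes, calls between the lines under vehicle numbered 1577 and ran from 551 to 3073 without single arrays or cultures; under E2 they numbered 1330 and ran from 622 to 2906, with 822 from the 2 groups alone. E2 in receptor cells gave 13 calls, 1 from its 2 groups alone, 26 with the block and 171 with the block on the authors' table. Receptor cultures gave 3404 calls, and 1789 to 6157 under other processing. Signal near background limits IGF2, IGF1R, IGFBP1, IGFBP2 and IGFBP5. The files name no slides, so no slide block was run.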

Other observations

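The array also carries 2 probes for the read-through transcript INS-IGF2, which were detected on 0 of 12 arrays, with detection p from 0.592 to 0.997.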
